A study of Mus musculus with 9 samples.

Results

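The genes of cholesterol and fatty acid synthesis were followed through the acetylated chromatin and the SOX6 peaks of mouse oligodendrocytes (OLs) and of the oligodendrocyte progenitor cells (OPCs) that give rise to them. The group was a list of 32 named genes of the 21883 protein-coding genes measured: 18 sterol genes (17 enzymes and the carrier Stard4), 4 regulators of the SREBP system, and 10 genes of fatty acid synthesis, desaturation and elongation. The genes were chosen by name, with earlier results of these data known. For each gene, the length of DNA covered by peaks was summed over the gene body plus 10 kb on each side, in all 7 peak lists.

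The cells were OLs, purified as intermediate cells carrying the surface lipid antigen O1, and OPCs, sorted for CD140a and NG2 and grown with bFGF and PDGFA. Both were made in culture, without SHH, from 2 lines of epiblast stem cells: 129O1, of mouse strain 129S1/SvImJ, and EpiSC5, of mouse strain 129SvEv. The lists were H3K27ac in OLs of both lines, H3K27ac in OPCs of both lines (9 µg of antibody a sample), SOX6 in OLs of EpiSC5 alone, and SOX6 in OPCs of both lines (15 µg of antibody a sample). Each state and line was 1 library, so the 2 lines are the replicates, and no SOX6 list of 129O1 OLs was analysed here. The SE and p-value of a gene rest only partly on its own spread between the lines (1 residual degree of freedom). The larger part comes from the spread over all genes tested (a prior of 5.03 degrees of freedom). The labels name no genotype or drug that differed, and all cells were cultured, so no tissue was measured.

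Cholesterol is built from acetyl-CoA through mevalonate, isoprenoids, squalene and lanosterol. Fatty acids are built from the same acetyl-CoA through malonyl-CoA. Both pathways are switched on by the SREBP transcription factors, which SCAP carries to the Golgi for cleavage and which INSIG proteins hold in the endoplasmic reticulum when sterols are plentiful. Myelin is rich in cholesterol and long-chain lipids, and myelinating cells make much of their own cholesterol. Acetylation of histone H3 at lysine 27 (H3K27ac) is found at promoters and enhancers in use. SOX6, a DNA-binding protein of the SOX family, is made by OPCs.

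The H3K27ac lists held 33738 and 31005 peaks in OLs of 129O1 and EpiSC5, and 30829 and 27721 peaks in OPCs of 129O1 and EpiSC5. The SOX6 lists held 3893 peaks in OLs of EpiSC5, against 22876 and 15487 peaks in OPCs of 129O1 and EpiSC5. Peak lists carry no read depth, so depth is unknown. The markers differed in the direction of the labels. H3K27ac over 5 oligodendrocyte markers summed to 57.4 and 78.2 kb in OLs, against 12.7 and 11.9 kb in OPCs, where Mag was at 0 in both lines, Enpp6 at 0 in 129O1 and Mobp at 0 in EpiSC5. Over 3 OPC markers it summed to 20.9 and 15.6 kb in OLs, against 50.4 and 41.5 kb in OPCs. Over 3 astrocyte markers it summed to 17.9 and 13.4 kb in OLs, against 11.4 and 6.76 kb in OPCs, and 3 microglial markers summed to 3.45 and 2.04 kb in OLs, against 1.08 and 0.896 kb in OPCs, with Cx3cr1 at 0 in all 4 lists. The 4 neuronal markers summed to 38.9 and 23.0 kb in OLs, against 50.3 and 41.5 kb in OPCs, and did not move together. Map2 had 15.5 and 9.09 kb in OLs, against 37.4 and 31.0 kb in OPCs. Tubb3 was also lower in OLs of both lines, with 7.97 and 4.37 kb against 8.63 and 5.41 kb. Elavl3 was higher in OLs, with 7.94 and 6.78 kb against 2.46 and 1.81 kb. Rbfox3 differed by line, with 7.53 and 2.79 kb in OLs against 1.77 and 3.33 kb in OPCs. The 2 pluripotency markers summed to 1.55 and 0 kb in OLs, against 3.52 and 1.43 kb in OPCs. The part of other cell types in the results below was not tested.

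Start-site sequence was available from RefSeq (GRCm38.p6, the patched form of the mm10 build of the peaks) for 25 of the 32 members, as windows of 250 bases before to 50 bases after a start. Sqle, Fdft1, Fdps, Stard4, Scd1, Scd2 and Fads1 are not in that table. The sterol genes shared a sequence feature: each of the 14 sterol genes in the table had the letters CCAAT, the core of the box bound by NF-Y, on 1 strand or the other of at least 1 of its windows. So did 3 of 4 regulators and 4 of 7 fatty acid genes, and 21 of 25 members together, against 42.3% of the 17491 genes in the table. Counted by window, 82.4% of the 17 sterol windows held it, against 38.2% of all 21262 windows, and 52.9% of sterol windows held it 2 times or more, against 12.8% of all windows. The median GC content was 61.3% for sterol windows and 56.3% for all windows. For Pmvk the CCAAT match was in the window chr3:89454291-89454590, 3543 to 4304 bases from the nearest H3K27ac peak of each list. Its other window, chr3:89459321-89459620, was touched by H3K27ac in all 4 lists and held no match.

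The windows of Hmgcs1, Lss, Cyp51 and Idi1 are shown as the first members of the sterol list by a rule that put a sterol element match first. Those of Hsd17b7 and Acly were added after their values were seen, because the H3K27ac of both genes changed between the states. Hmgcs1 makes HMG-CoA, Lss closes squalene epoxide to lanosterol, Cyp51 demethylates lanosterol, Idi1 interconverts the isoprenoid building blocks, Hsd17b7 reduces a sterol ketone, and Acly makes cytosolic acetyl-CoA from citrate. Each sequence reads 5′ to 3′ on the strand of the gene, and capitals mark CCAAT, its reverse complement ATTGG, or a match to TCACNCCAC.

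Hmgcs1 (chr13:119690101-119690400, plus strand): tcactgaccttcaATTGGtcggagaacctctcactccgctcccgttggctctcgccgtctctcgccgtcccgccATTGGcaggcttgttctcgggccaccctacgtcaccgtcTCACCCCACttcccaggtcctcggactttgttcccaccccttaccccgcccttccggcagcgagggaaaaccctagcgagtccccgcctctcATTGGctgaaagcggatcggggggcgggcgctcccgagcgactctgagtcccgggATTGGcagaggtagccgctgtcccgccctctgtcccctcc
Lss (chr10:76531355-76531654, plus strand): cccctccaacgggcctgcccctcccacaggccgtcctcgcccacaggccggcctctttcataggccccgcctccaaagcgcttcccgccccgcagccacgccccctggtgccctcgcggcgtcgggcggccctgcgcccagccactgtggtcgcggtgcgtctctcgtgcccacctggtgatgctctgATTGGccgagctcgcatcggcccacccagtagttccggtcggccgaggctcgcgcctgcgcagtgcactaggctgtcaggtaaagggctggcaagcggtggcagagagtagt
Cyp51 (chr5:4104648-4104947, minus strand): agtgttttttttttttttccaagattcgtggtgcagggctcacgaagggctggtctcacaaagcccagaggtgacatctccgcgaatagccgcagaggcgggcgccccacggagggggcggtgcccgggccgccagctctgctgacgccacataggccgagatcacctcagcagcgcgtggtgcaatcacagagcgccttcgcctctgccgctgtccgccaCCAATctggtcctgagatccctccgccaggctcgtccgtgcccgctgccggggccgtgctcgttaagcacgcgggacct
Idi1 (chr13:8885356-8885655, plus strand): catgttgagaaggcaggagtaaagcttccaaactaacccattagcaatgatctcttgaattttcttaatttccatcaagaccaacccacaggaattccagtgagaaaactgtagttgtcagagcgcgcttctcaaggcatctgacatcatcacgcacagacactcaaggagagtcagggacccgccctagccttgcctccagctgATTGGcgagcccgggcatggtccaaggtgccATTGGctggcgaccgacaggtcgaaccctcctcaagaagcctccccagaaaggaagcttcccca
Hsd17b7 (chr1:169969156-169969455, minus strand): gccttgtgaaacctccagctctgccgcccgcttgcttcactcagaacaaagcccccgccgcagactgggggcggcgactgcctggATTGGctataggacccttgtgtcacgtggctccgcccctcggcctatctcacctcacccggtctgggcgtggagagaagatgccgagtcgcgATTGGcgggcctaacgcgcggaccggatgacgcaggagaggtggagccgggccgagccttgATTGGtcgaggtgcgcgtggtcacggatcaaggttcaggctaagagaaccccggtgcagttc
Acly (chr11:100527951-100528250, minus strand): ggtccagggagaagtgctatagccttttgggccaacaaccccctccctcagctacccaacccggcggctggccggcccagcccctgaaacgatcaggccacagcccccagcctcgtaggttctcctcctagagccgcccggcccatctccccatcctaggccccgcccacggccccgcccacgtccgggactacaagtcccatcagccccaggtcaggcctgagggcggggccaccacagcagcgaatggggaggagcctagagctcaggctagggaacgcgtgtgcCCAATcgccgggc

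The Hmgcs1 window held 4 copies of the CCAAT box, Hsd17b7 3, Idi1 2, and Lss, Cyp51 and Acly 1 each. The loose sterol regulatory element TCACNCCAC was found on either strand in the Hmgcs1 window alone among the 25 members, with its first base at -137 from the start, and in 1.41% of all genes in the table. A stricter form with 1 more base and no free position was found in 0 of 25 members and in 0.0800% of all genes. The E-box CACGTG was found in 6 members (Dhcr7, Hsd17b7, Sc5d, Insig1, Scap and Elovl5) and in 8.91% of all genes. The Sp1 box GGGCGG was found in 20 members and in 49.2% of all genes. The SOX motif AACAAT was found in 1 member, Pmvk, and in 10.6% of all genes. In 1 member window a CCAAT match overlapped another searched motif. A match describes letters in a window and not a bound site.

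Every one of the 32 members had an H3K27ac peak in its window in all 4 H3K27ac lists, against 56.7% of all protein-coding genes. List by list, the share of all genes was 65.7% and 61.7% in OLs of 129O1 and EpiSC5, against 67.3% and 65.3% in OPCs. The fatty acid genes carried the most acetylated DNA. The 10 fatty acid genes had a median covered length of 9.64 and 6.31 kb in OLs and 6.47 and 5.36 kb in OPCs of 129O1 and EpiSC5. The 18 sterol genes had medians of 2.53 and 1.73 kb in OLs, against 2.3 and 1.77 kb in OPCs. The 4 regulators had medians of 5.50 and 4.53 kb in OLs, against 3.71 and 3.29 kb in OPCs. Fatty acid windows were also longer, with a median of 49.0 kb against 35.8 kb for sterol genes. As a share of the window, the fatty acid medians were 14.7% and 9.98% in OLs and 10.2% and 8.05% in OPCs, and the sterol medians were 7.25% and 4.46% in OLs and 5.94% and 4.92% in OPCs. So the fatty acid genes had a higher median than the sterol genes in each of the 4 lists on either scale. All protein-coding genes had medians of 1.34 and 0.943 kb in OLs, against 1.69 and 1.29 kb in OPCs, and many of them had no peak.

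**Figure D1:**
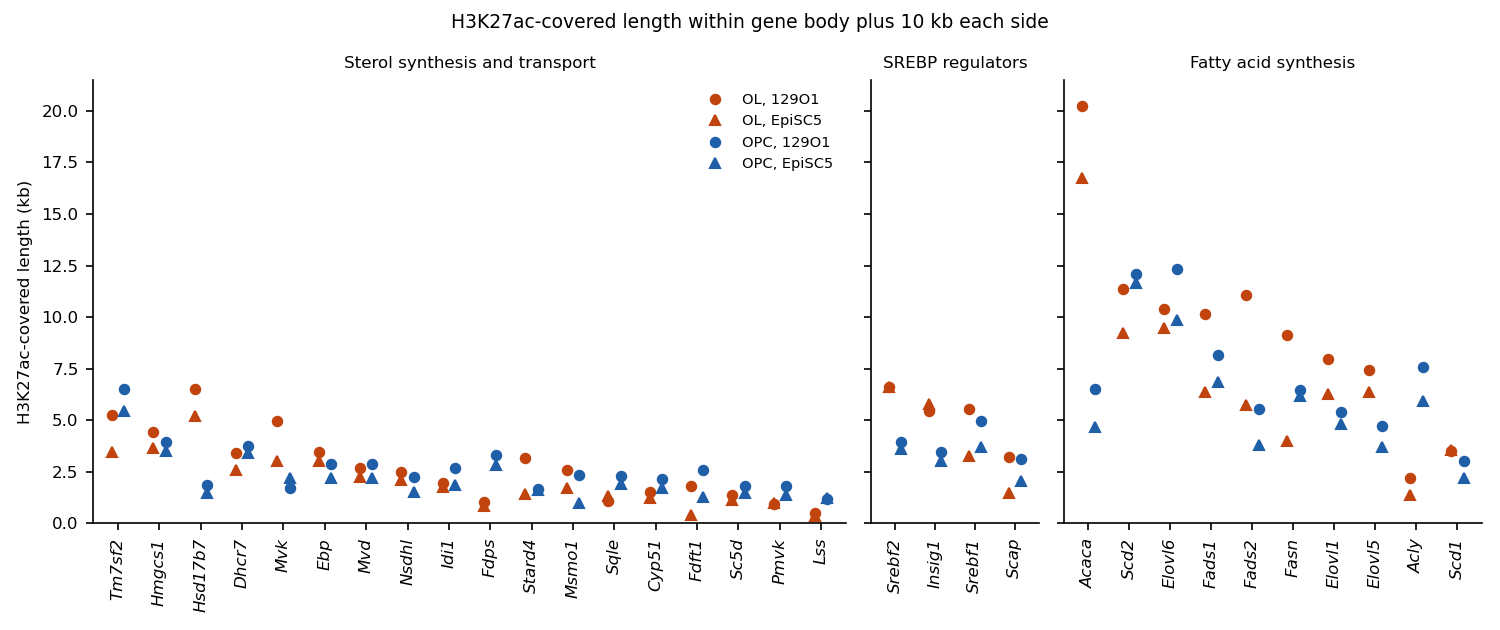
H3K27ac covered length (kb, unscaled) of each member in the gene body plus 10 kb on each side, with genes along the horizontal axis, circles for 129O1, triangles for EpiSC5 and OLs left of OPCs. Acaca reaches 20.3 kb in 129O1 OLs against 6.49 kb in 129O1 OPCs, and the sterol genes lie mostly below the fatty acid genes.

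The members' peaks differed in strength as well as length. Ranked by the authors' q-value within each list, the strongest peak of Elovl6, an elongase of saturated fatty acids, stood in the top 0.563% and 0.0871% of OL peaks and the top 1.79% and 2.05% of OPC peaks. The strongest peak of Insig1, the sterol-sensing anchor of SREBP, stood in the top 0.617% and 1.44% of OL peaks and the top 0.814% and 2.79% of OPC peaks. These members were picked out after their values were seen. At the other end, the strongest peak of Scap stood in the top 57.0% and 83.0% of OL peaks and the top 67.5% and 48.9% of OPC peaks. The median over the 10 fatty acid genes was the top 7.52% and 9.19% in OLs and 10.3% and 11.3% in OPCs, and over the 18 sterol genes the top 28.6% and 37.6% in OLs and 26.1% and 28.2% in OPCs. Longer windows hold more peaks, and the part of window length in this rank was not tested.

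The main question was whether acetylated chromatin at these genes differed between OLs and OPCs. In a fit across all genes, most members did not pass the test, and those that did went both ways. Of the 31 members tested (Lss averaged under 1 kb), Hsd17b7 and Acaca were wider in OLs, against 12.5% of all 12456 genes tested, and Fdps and Acly were narrower, against 16.4% of all. The test was limma on log2(scaled covered kb + 1), with Benjamini-Hochberg adjustment over all genes, an adjusted p under 0.05 and the same sign in both lines. The other 27 members were not called, and 12 of the 31 (38.7%) had an unadjusted p under 0.05, against 44.5% of all genes tested. The shares called among members, 2 of 31 each way, lay below those of all genes and are no result about the group. The sign of the change was the same in both lines for 26 of 31 members (83.9%), against 84.5% of all genes tested. The median change was -0.12 over members, -0.28 over the 17 sterol genes tested, 0.21 over the 4 regulators and 0.10 over the 10 fatty acid genes, against -0.24 over all genes tested. The median over members was -0.23 without 129O1 OLs and 0.075 without EpiSC5 OLs, against -0.27 and -0.21 over all genes, so its sign changed without the EpiSC5 OL list.

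**Figure D2:**
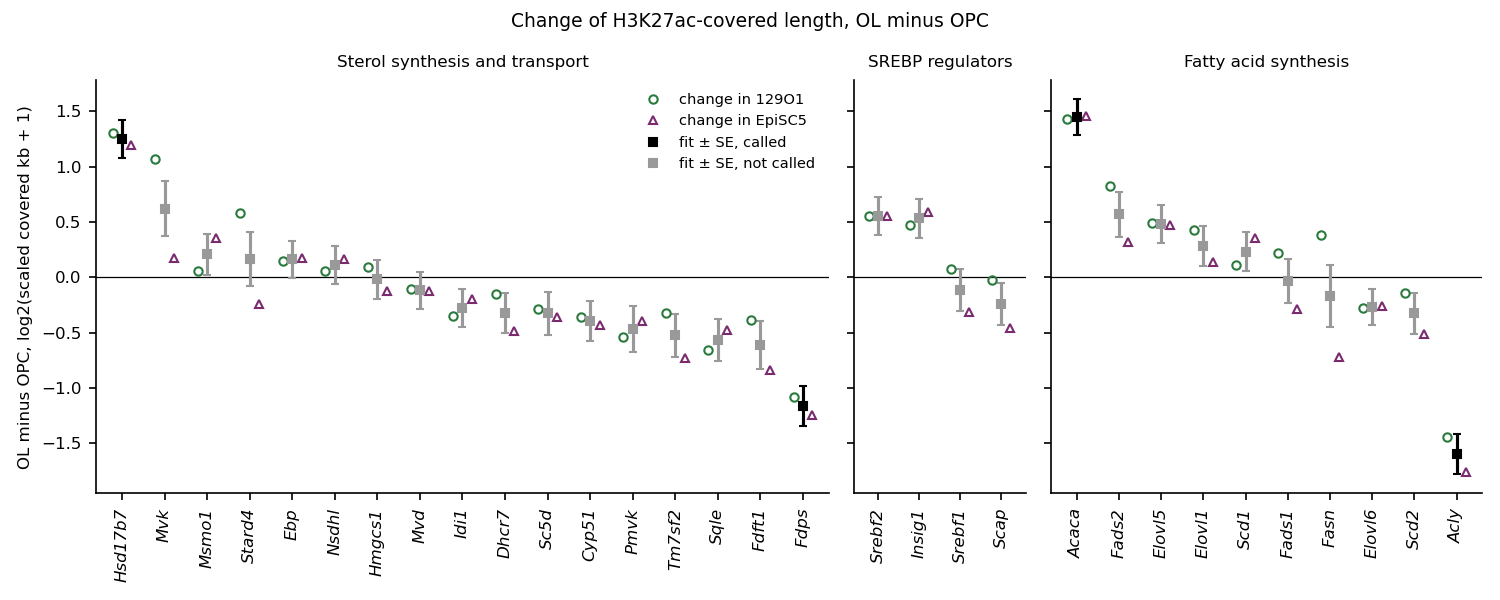
Change in H3K27ac covered length, OL minus OPC, on the log2(scaled kb + 1) scale for each tested member, with the fitted value and SE as squares and bars and each line as an open symbol. Acaca (1.45) and Hsd17b7 (1.25) lie highest, and Fdps (-1.16) and Acly (-1.60) lowest.

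The 2 enzymes that feed and commit carbon to fatty acid synthesis moved in opposite directions. Acaca, which carboxylates acetyl-CoA to malonyl-CoA (chr11:84129635-84401651, mm10) had 20.3 kb of H3K27ac in 129O1 OLs and 16.7 kb in EpiSC5 OLs, against 6.49 and 4.68 kb in OPCs. The OL and OPC values did not overlap, and the change was 1.45 ± 0.17 (SE; 1.43 in 129O1 and 1.46 in EpiSC5; limma adjusted p = 0.00431). Acly (chr11:100476352-100528000) had 2.19 and 1.37 kb in OLs, against 7.58 and 5.92 kb in OPCs. Here OPCs were higher in both lines, and the change was -1.60 ± 0.18 (-1.44 in 129O1 and -1.76 in EpiSC5; limma adjusted p = 0.00422).

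In Acaca the added acetylation lay mostly inside the gene and at its right end. Its window held 7 regions present in OLs of both lines and in neither OPC list. The longest, chr11:84397972-84403301, spanned the right end of the gene and had 5.09 and 3.71 kb of peaks in OLs. Another, chr11:84281388-84283884, had 2.50 and 2.21 kb in OLs. The region at the left end of the gene, chr11:84128891-84130133, was in all 4 lists and had 1.24 and 1.07 kb in OLs, against 1.06 and 0.815 kb in OPCs. Of the 7 regions, the one at chr11:84120781-84122254 lay over the neighbouring gene Tada2a.

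At Acly the OL values were lower at each region. The start region, chr11:100525689-100528620, was in all 4 lists with 1.10 and 0.737 kb in OLs, against 2.93 and 2.47 kb in OPCs. The region within the gene near its other end, chr11:100477205-100478861, was absent in OLs of both lines and had 1.66 and 1.04 kb in OPCs. Outside the gene, chr11:100533520-100534563 was absent in OLs and had 1.03 and 0.869 kb in OPCs. That region overlapped no protein-coding gene. Also outside the gene, chr11:100471250-100473215 lay over the neighbouring gene Klhl11, with 1.10 and 0.630 kb in OLs, against 1.96 and 1.55 kb in OPCs.

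Among sterol genes the called members also split. Hsd17b7 (chr1:169949535-169969242) had 6.49 and 5.21 kb in OLs, against 1.87 and 1.49 kb in OPCs. The states did not overlap, with a change of 1.25 ± 0.17 (1.31 in 129O1 and 1.19 in EpiSC5; limma adjusted p = 0.00670). Most of it was 1 region, chr1:169968122-169973331, which covers the start of Hsd17b7 and reaches over Ddr2. It had 5.02 and 5.21 kb in OLs, against 1.87 and 1.49 kb in OPCs, so which gene it belongs to cannot be told apart. Fdps (chr3:89093588-89101967), which makes farnesyl diphosphate, had 1.02 and 0.839 kb in OLs, against 3.28 and 2.83 kb in OPCs. The change was -1.16 ± 0.18 (-1.08 in 129O1 and -1.24 in EpiSC5; limma adjusted p = 0.00889). Its start region, chr3:89100982-89102815, had 1.02 and 0.839 kb in OLs, against 1.83 and 1.5 kb in OPCs, and the rest of its OPC signal was a region over Rusc1, chr3:89090236-89091684, that was absent in OLs. Over gene bodies alone, Hsd17b7 and Fdps fell under the minimum length and were not tested.

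These calls rest on both OPC lists: without either one, 1 OPC list is left and limma made no call for any gene. Without 129O1 OPCs and without EpiSC5 OPCs, the fitted changes were 1.48 and 1.42 for Acaca and 1.22 and 1.29 for Hsd17b7. They were -1.21 and -1.12 for Fdps and -1.60 and -1.61 for Acly. Another protein-coding gene lay in the window of 25 of the 32 members, and no member windows overlapped each other.

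The other sterol genes fill the pathway from mevalonate to cholesterol, and none of those tested was called. Sqle, squalene epoxidase, had 1.09 and 1.31 kb in OLs, against 2.28 and 1.89 kb in OPCs, a change of -0.57 ± 0.19 that was not called (limma adjusted p = 0.0671). Fdft1, squalene synthase, had 1.79 and 0.410 kb in OLs, against 2.56 and 1.28 kb in OPCs. Its change was -0.61 ± 0.22, also not called (limma adjusted p = 0.0826). Both were narrower in OLs within each line, though the lines overlapped across states for Fdft1. Mvk, mevalonate kinase, had 4.94 and 3.03 kb in OLs, against 1.69 and 2.22 kb in OPCs, and was not called at 0.62 ± 0.25 (limma adjusted p = 0.107), with 1.07 in 129O1 and 0.17 in EpiSC5. Tm7sf2, a sterol reductase, had 5.23 and 3.44 kb in OLs, against 6.52 and 5.44 kb in OPCs (-0.53 ± 0.19; limma adjusted p = 0.0866). Its states did not overlap, and it was not called. Most of that length lay over the neighbouring genes Mrpl49, Fau, Znhit2 and Vps51. The Tm7sf2 body alone had 0.735 and 0 kb in OLs, against 1.09 and 0.971 kb in OPCs. Hmgcs1 had 4.43 and 3.66 kb in OLs, against 3.92 and 3.50 kb in OPCs, and its fitted change was -0.02 ± 0.18. Lss had 0.517 and 0.343 kb in OLs, against 1.19 and 1.23 kb in OPCs, below the length needed for the test. For the remaining sterol genes (Cyp51, Idi1, Dhcr7, Msmo1, Nsdhl, Mvd, Sc5d, Pmvk, Ebp and Stard4) the fitted changes lay between -0.47 (Pmvk) and 0.21 (Msmo1), and none was called.

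The 4 regulators did not pass the test. Srebf2, the SREBP that drives sterol genes, had 6.59 and 6.59 kb in OLs, against 3.96 and 3.58 kb in OPCs. Both OL values lay above both OPC values, with a change of 0.55 ± 0.17 (limma adjusted p = 0.0586). Insig1 had 5.45 and 5.79 kb in OLs, against 3.46 and 3.01 kb in OPCs, without overlap and with a change of 0.53 ± 0.17 (limma adjusted p = 0.0660). Its difference lay outside the gene: the start region, chr5:28069717-28073329, had 3.58 and 2.97 kb in OLs, against 3.46 and 3.01 kb in OPCs, while a region at chr5:28066579-28068447, overlapping no protein-coding gene, was in OLs only with 1.87 and 1.44 kb. Over the gene body alone the Insig1 change was -0.23. Srebf1, the SREBP gene tied to fatty acid synthesis, had 5.55 and 3.27 kb in OLs, against 4.97 and 3.69 kb in OPCs (-0.12 ± 0.19). Scap had 3.19 and 1.48 kb in OLs, against 3.12 and 2.05 kb in OPCs (-0.24 ± 0.19). For both, the states overlapped and the direction reversed under at least 1 other setting.

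Of the other fatty acid genes, none was called. Fads2, which desaturates polyunsaturated fatty acids, had 11.1 and 5.73 kb in OLs, against 5.53 and 3.78 kb in OPCs, a change of 0.57 ± 0.20 (limma adjusted p = 0.0807). Elovl5, which elongates them, had 7.41 and 6.36 kb in OLs, against 4.73 and 3.70 kb in OPCs (0.48 ± 0.17; limma adjusted p = 0.0834). Both OL values lay above both OPC values in these genes. Fasn, fatty acid synthase, had 9.14 and 4.00 kb in OLs, against 6.46 and 6.19 kb in OPCs, with the lines going opposite ways. Scd2, a stearoyl-CoA desaturase of mouse brain, had 11.4 and 9.23 kb in OLs, against 12.1 and 11.7 kb in OPCs (-0.33 ± 0.18), and Scd1 had 3.49 and 3.53 kb in OLs, against 3.02 and 2.19 kb in OPCs (0.23 ± 0.17). Elovl6 had 10.4 and 9.47 kb in OLs, against 12.3 and 9.87 kb in OPCs (-0.27 ± 0.16). Elovl1, an elongase of very long chains, had 7.96 and 6.26 kb in OLs, against 5.38 and 4.79 kb in OPCs (0.28 ± 0.18). Part of that length was a region over the neighbouring gene Med8, chr4:118415176-118421002, which reaches past the window. This region had 5.83 and 4.61 kb in OLs, against 1.51 and 2.11 kb in OPCs. The Elovl1 body alone had 2.09 and 1.63 kb in OLs, against 1.67 and 1.17 kb in OPCs. Fads1 had 10.1 and 6.38 kb in OLs, against 8.17 and 6.83 kb in OPCs.

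The merged H3K27ac regions over the members' windows numbered 113. Of these, 50 were in all 4 lists (44.2%, against 30.1% of all 49676 regions), 18 in OLs of both lines only (15.9%, against 16.7%) and 7 in OPCs of both lines only (6.19%, against 11.1%). The 18 OL-only regions lay at 11 members, 7 of them at Acaca, and the 7 OPC-only regions at 6. Sterol genes held 37 regions, of which 22 were in all 4 lists, fatty acid genes 58, of which 23 were, and regulators 18, of which 5 were. Acaca also had the longest window, 292 kb, against 126 kb for the next longest (Elovl6) and a median of 37.1 kb over members, and the part of window length in this count was not tested.

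**Figure D3:**
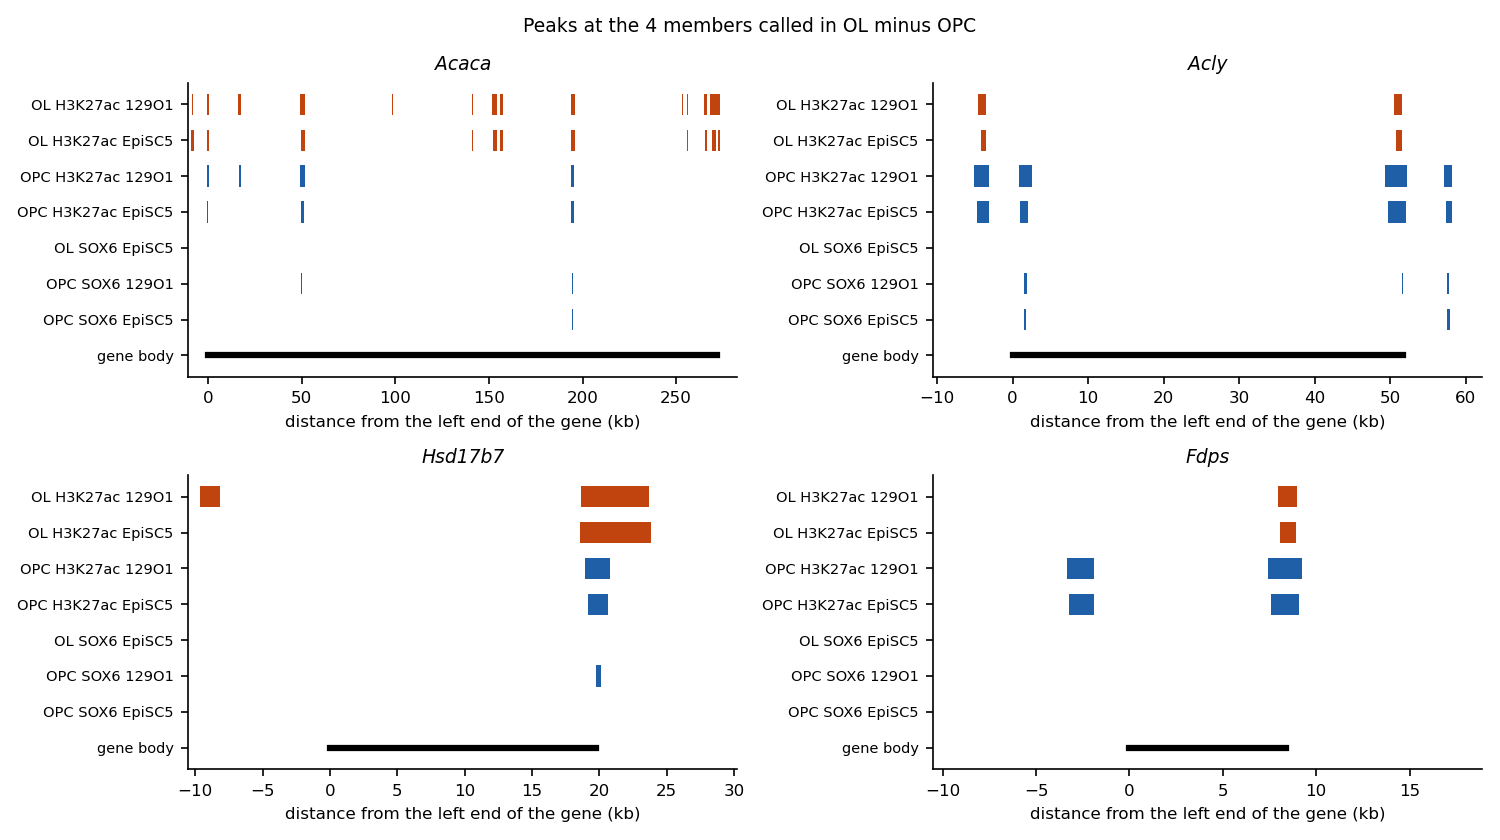
Peaks of each list over the 4 called members, with distance from the left end of the gene in kb on the horizontal axis and 1 row per list, H3K27ac above SOX6 and OLs above OPCs. Acaca shows 7 regions in OLs only, and Acly 2 regions in OPCs only that carry OPC SOX6 peaks.

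No member passed the test between the cell lines. In the line comparison of the same fit, 129O1 minus EpiSC5, 0 of 31 members were called by limma, against 0.0723% of all genes wider and 0.0161% narrower. At an unadjusted p under 0.05 there was 1 member, Fdft1, with a change of 0.63 ± 0.22 (limma adjusted p = 0.565): 1.79 kb in 129O1 OLs and 2.56 kb in 129O1 OPCs, against 0.410 kb in EpiSC5 OLs and 1.28 kb in EpiSC5 OPCs. The other members lay between -0.20 (Insig1) and 0.39 (Msmo1). The small number of lists limits what this comparison can show.

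At the start windows themselves, OPCs had the more complete coverage. Among the 25 members in the promoter table, an H3K27ac peak touched a window in 20 and 17 members in OLs of 129O1 and EpiSC5, against 24 and 24 in OPCs. The share over all genes in the table was 46.6% and 37.1% in OLs, against 51.7% and 48.9% in OPCs. The 14 sterol genes were all touched in OPCs of both lines, and 12 and 9 were touched in OLs. All 4 regulators were touched in each of the 4 lists. Ebp, Tm7sf2, Acly and Elovl6 were touched in OPCs of both lines and in OLs of neither. Their OL peaks began close by, 46 and 254 bases away for Ebp, 65 and 158 for Elovl6, 19 and 92 for Acly, and 3 and 5674 for Tm7sf2 in 129O1 and EpiSC5. Lss, Mvk and Nsdhl missed a window in EpiSC5 OLs alone, by 46, 30 and 193 bases. Apart from Tm7sf2 in EpiSC5, each of these OL peaks thus began within 254 bases of the window. The Acaca window of the table lies inside the gene, chr11:84195188-84195487, 13834 bases from the nearest 129O1 OL peak, and was touched in 0 of the 4 lists. SOX6 peaks touched windows of 2 members in EpiSC5 OLs, against 7 and 2 in OPCs of 129O1 and EpiSC5, where the shares over all genes were 7.76% in EpiSC5 OLs, against 15.6% and 7.96% in OPCs.

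**Figure D4:**
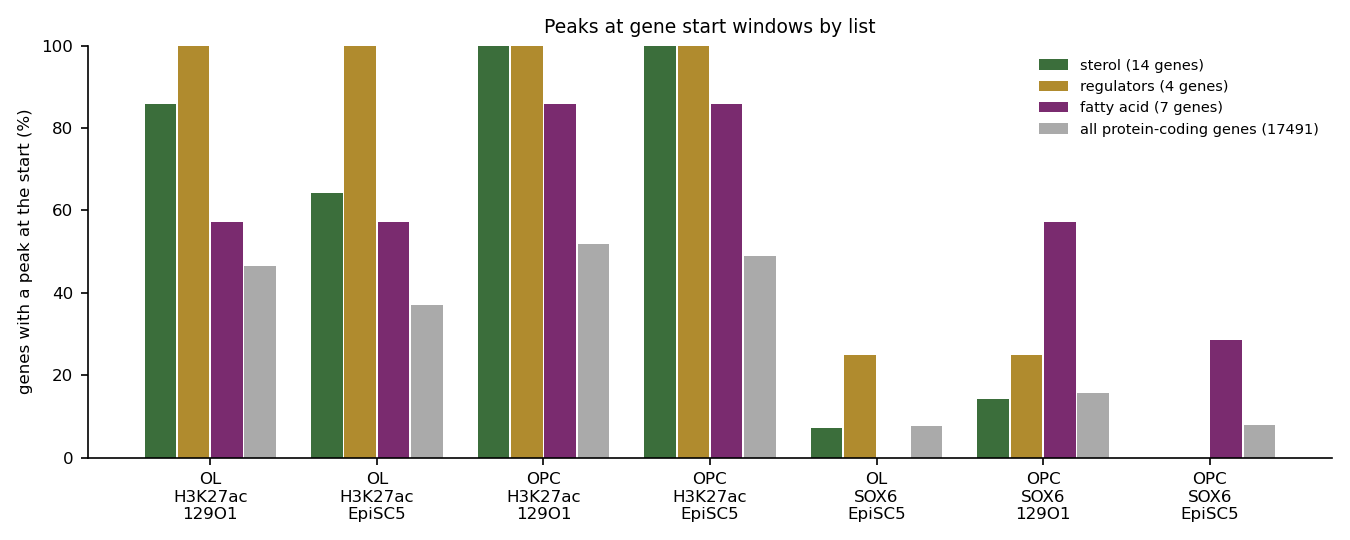
Percent of genes with a RefSeq start window touched by a peak, as bars for sterol genes, regulators, fatty acid genes and all genes in each list, OLs left of OPCs. The members' H3K27ac counts are 20 and 17 of 25 in OLs, against 24 and 24 in OPCs.

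With all listed peaks, SOX6 in OPCs was found at 9 of 10 fatty acid genes and at 4 of 18 sterol genes. In both OPC lists, 15 of 32 members had SOX6 in the window, against 31.2% of all protein-coding genes and 49.6% of genes with enough H3K27ac to be tested, so the total lay near the second background. Of the 4 regulators, 2 had it. The exception among fatty acid genes was Fads2. Each list on its own gave 18 members in 129O1 OPCs (44.5% of all genes) and 15 in EpiSC5 OPCs (32.6%). With gene bodies alone the counts were 6 of 10 fatty acid genes and 3 of 18 sterol genes (21.7% of all genes), and with 50 kb on each side 10 and 7 (53.9%). With the higher-scoring 50% of peaks they were 7 and 2 (17.5%). With the EpiSC5 OPC list cut to its 3893 highest-scoring peaks, the length of the OL list, they were 3 and 1 (10.2%), so most fatty acid genes held no SOX6 in both lists there. The difference between roles was not tested. The fatty acid windows were also longer, and the part of window length was not tested.

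**Figure D5:**
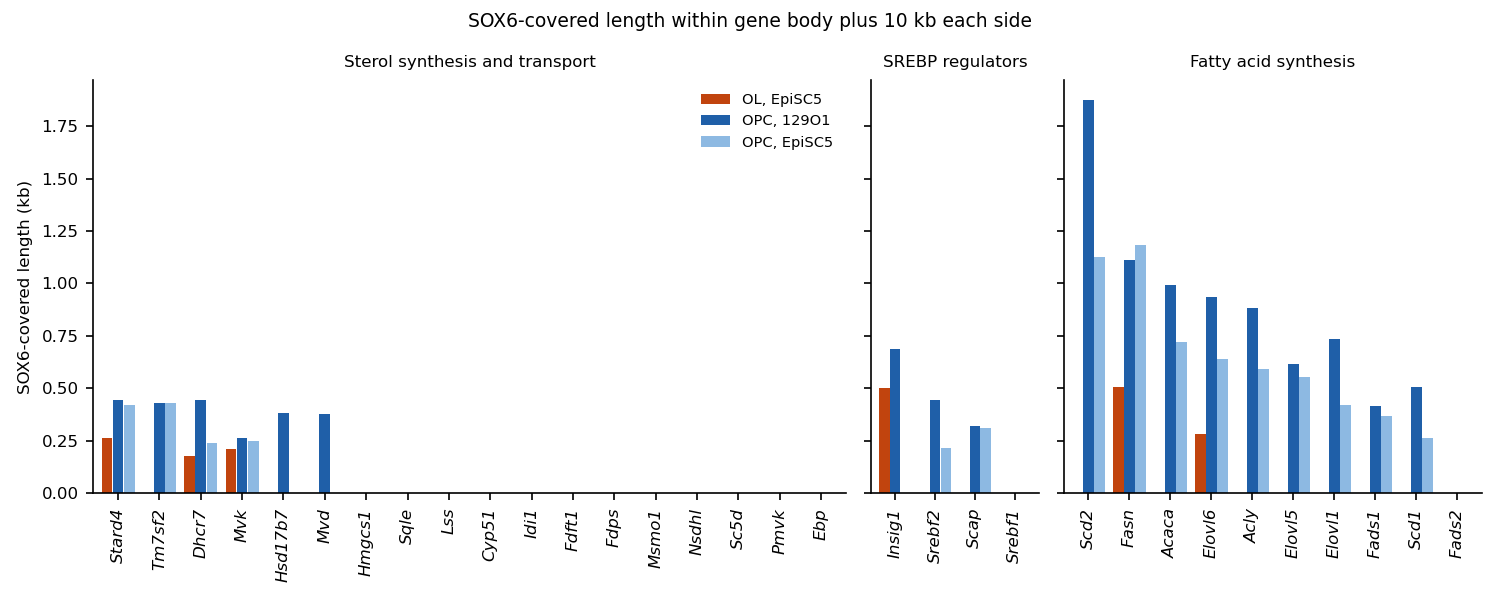
SOX6 covered length (kb) of each member in the gene body plus 10 kb on each side, with 1 bar per list for EpiSC5 OLs, then OPCs of 129O1 and EpiSC5. Scd2 and Fasn lie highest in OPCs, and 6 members are above 0 in EpiSC5 OLs.

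The members with most SOX6, ranked by the smaller OPC list, were all fatty acid genes. Scd2 had 0 kb in EpiSC5 OLs, against 1.88 and 1.13 kb in OPCs of 129O1 and EpiSC5. Fasn had 0.506 kb in OLs, against 1.11 and 1.18 kb in OPCs. Acaca had 0 kb in OLs, against 0.994 and 0.723 kb in OPCs. These 3 enzymes make malonyl-CoA, join it into palmitate and desaturate the product. Elovl6 followed with 0.281 kb in OLs, against 0.935 and 0.638 kb in OPCs, and Acly with 0 kb in OLs, against 0.885 and 0.591 kb in OPCs. Of the called sterol genes, Hsd17b7 had SOX6 in 129O1 OPCs alone (0.382 kb), and Fdps had none in any list. Srebf2 had 0 kb in OLs, against 0.444 and 0.216 kb in OPCs, Scap 0 kb against 0.318 and 0.312 kb, and Srebf1 had no SOX6 in any list.

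In EpiSC5 OLs 6 members had SOX6 in the window, against 16.3% of all genes: Dhcr7 (0.179 kb), Mvk (0.211 kb), Stard4 (0.261 kb), Insig1 (0.501 kb), Fasn and Elovl6. In the OPC lists of 129O1 and EpiSC5, Dhcr7, a late sterol reductase, had 0.446 and 0.241 kb, Mvk 0.263 and 0.25 kb, Stard4, a sterol carrier, 0.446 and 0.420 kb, and Insig1 0.685 and 0 kb. Insig1 thus had SOX6 in EpiSC5 OLs and not in EpiSC5 OPCs. With all listed peaks, 15 members had SOX6 in EpiSC5 OPCs (32.6% of all genes). With 3893 peaks taken from each EpiSC5 list by score, 6 members had SOX6 in OLs (16.3%), against 4 in OPCs (10.2%). The part of list length in these counts was not tested. There is 1 SOX6 list of OLs, so no test was made.

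The SOX6 peaks at members merged into 38 sites, 8 of them in EpiSC5 OLs, 35 in 129O1 OPCs and 24 in EpiSC5 OPCs. Of the 23 sites in both OPC lists, 2 were also in OLs (8.70%, against 10.4% of all such sites). H3K27ac overlapped 18 of the 23 in OLs of both lines (78.3%, against 54.7% of all such sites) and 19 of the 23 in OPCs of both lines (82.6%, against 67.9%). Fatty acid genes held 16 of the 23, and 15 of these overlapped OPC H3K27ac.

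Single sites showed each pairing of SOX6 with acetylation. In Acaca, SOX6 at chr11:84323941-84324685 lay in a region acetylated in all 4 lists, with authors' fold enrichments of 14.8 and 15.4 in OPCs, among the top 3.07% and 2.50% of peaks by q-value. At Acly, both OPC-only regions held SOX6 in OPCs of both lines and none in OLs. At Stard4, a SOX6 site within the gene had authors' fold enrichments of 19.2 and 14.7 in OPCs and was also in EpiSC5 OLs, but the region around it was acetylated in OLs of both lines only (0.838 and 0.831 kb). At the 3′ end of Srebf2, SOX6 at chr15:82204352-82204595 in both OPC lists overlapped H3K27ac in OLs and not in OPCs. The region around it, chr15:82203932-82205122, did have 0.302 kb of H3K27ac in EpiSC5 OPCs, against 0.950 and 1.19 kb in OLs. At Scap, chr9:110384540-110384875 held SOX6 in both OPC lists and no H3K27ac in any list. At Mvk a site in OLs only, chr5:114462206-114462416, lay in a region acetylated in OLs only. Counted over member regions, both OPC SOX6 lists were present in 1 of 18 OL-only regions, 2 of 7 OPC-only regions and 15 of 50 regions in all 4 lists, against 7.79%, 28.5% and 41.5% of all such regions.

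Genes of the same pathways outside the 32 were taken from a fixed list. Of 19 related sterol genes, 15 were tested, 3 were wider and 2 narrower in OLs, and of 28 related fatty acid genes, 24 were tested, 4 were wider and 3 narrower. These shares sit beside 12.5% and 16.4% of all genes. Mbtps1, the Golgi protease that makes the initial cut in SREBP, had 10.6 and 9.77 kb in OLs, against 1.80 and 1.86 kb in OPCs (1.87 ± 0.18; limma adjusted p = 0.00294). Elovl7, an elongase of saturated very long chains, had 17.1 and 19.1 kb in OLs, against 4.47 and 2.80 kb in OPCs (1.95 ± 0.21; limma adjusted p = 0.00388). Both were wider in OLs without overlap, and the changes of both were above that of Acaca. Lpin1, a phosphatidate phosphatase, had 7.91 and 3.37 kb in OLs, against 15.5 and 11.3 kb in OPCs (-1.32 ± 0.23; limma adjusted p = 0.0124). Acsl6, an acyl-CoA synthetase, had 8.25 and 4.2 kb in OLs, against 3.61 and 1.17 kb in OPCs (1.04 ± 0.18). Nr1h2, an oxysterol receptor, had 1.93 and 1.02 kb in OLs, against 3.47 and 2.94 kb in OPCs (-0.89 ± 0.20). Degs1, a sphingolipid desaturase, changed by 0.86 ± 0.18, Hacd2, a dehydratase of the elongation cycle, by 0.79 ± 0.20, and Acat2, an acetyl-CoA thiolase, by 0.75 ± 0.18. Each of these 8 was past the adjusted threshold of 0.05 in limma with the same sign in both lines.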

How the data were processed

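Per the labels' protocols, chromatin was crosslinked, sonicated, precipitated and sequenced single-end. The submitters' processing notes name Trim Galore 0.3.1, Bowtie2 2.3.2, Picard, deepTools, bedtools and the build mm10. The peak caller is not given in the sources used here. The authors deposited 1 peak list per library, in the broad-peak layout for H3K27ac and the narrow-peak layout for SOX6. As deposited by the authors, each list holds a peak score, a fold enrichment over background (a ratio) and the -log10 p-value and -log10 q-value of each peak, and the SOX6 lists also a summit position. Peaks start near a -log10 q of 3. The 2 input samples were not analysed here.

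Peaks were merged and summed over RefSeq gene bodies plus 10 kb on each side, scaled to equal totals per list for the fit, and log2-transformed with 1 kb added. Genes averaging at least 1 kb were fitted with limma 3.58.1 (R 4.3.3; trend) on state and cell line, leaving 1 residual degree of freedom per gene and a prior of 5.03. The replicate number is the cell line, which pairs OLs with OPCs. Tables and figures used Python 3.11.15, pandas 2.3.3, numpy 2.4.6 and matplotlib 3.10.9. The fit was tested on simulated data.

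Members and lists were chosen with earlier results of these data known. Values were given for called members (up to 12), the 4 regulators, the 5 with most SOX6 by the smaller OPC list, those with SOX6 in OLs, and up to 8 related genes by change. Further genes were named to account for each member. The library read by each sequencer is not given in the sources used here, so sequencer and state cannot be told apart.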

Additional observations from a re-analysis of the deposited data

Results flagged for a closer look

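In 5 members the H3K27ac change, OL minus OPC on the scaled lengths, had opposite signs in the lines. The difference, 129O1 change minus EpiSC5 change on the log2 scale, was 1.10 for Fasn (0.38 in 129O1 and -0.72 in EpiSC5). It was 0.82 for Stard4 (0.58 and -0.24), 0.50 for Fads1 (0.22 and -0.28), 0.40 for Srebf1 (0.08 and -0.32) and 0.22 for Hmgcs1 (0.09 and -0.13), each with 129O1 before EpiSC5. For Hmgcs1 the sign in EpiSC5 rests on the scaling. Its unscaled length was higher in OLs in both lines, at 4.43 against 3.92 kb in 129O1 and 3.66 against 3.50 kb in EpiSC5. With 1 list per state and line these differences were not tested, and in none did both lines pass a change of 0.5.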

How the results depend on the processing

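With 1 library per state and line, and lengths in place of counts, small changes cannot be shown at these genes, and depth is unknown. Larger changes can be missed too. In the simulated data the fit called 22% of genes given a log2 change of 1 and 76% of those given 1.5. Members called wider numbered 2 as reported. They numbered 0 with no filter on length (0% of all genes) and 6 of 17 tested with a mean of at least 3 kb (21.7%). Over gene bodies alone they numbered 4 of 20 (16.8%), and with 50 kb on each side 6 of 31 (14.6%). With the higher-scoring 50% of peaks they numbered 0 (1.20%). Members called narrower numbered 2 as reported, 0 with no filter (0% of all genes) and 1 of 20 over gene bodies (12.5%). With 50 kb on each side they numbered 6 of 31 (22.5%), and with the higher-scoring 50% of peaks 0 (0.400%). Where limma called 0, 7 members (no filter) and 6 members (higher-scoring peaks) had an unadjusted p under 0.05. These were 21.875% of members against 22.0034% of all genes with no filter, and 21.4286% against 32.0469% with higher-scoring peaks. Neither share of members lay above that of all genes tested, so these counts are no result about the members. Leaving out 1 list at a time, the fit was on state alone, so that a lone list is assumed to vary like the other state. The fitted changes then lay between 1.42 and 1.48 for Acaca and between 1.20 and 1.29 for Hsd17b7. They lay between -1.21 and -1.12 for Fdps and between -1.72 and -1.46 for Acly. What was called without each OPC list is given above. Without the replicate block for cell line, 2 members were wider and 2 narrower, the same genes, and all genes gave 1234 wider and 1368 narrower, against 1562 and 2041 with it. Without scaling to equal totals, all genes gave 1562 wider and 1143 narrower, with a median change of -0.13 in place of -0.24, and Srebf2 was called wider at 0.67. Srebf2 was also called over gene bodies (0.88) and with a mean of at least 3 kb. Insig1 was called wider with a mean of at least 3 kb (0.53, limma adjusted p = 0.0325) and with 50 kb on each side (0.63, limma adjusted p = 0.0274), and Scap narrower with 50 kb on each side (-0.79). The median change over members was 0.034 with 50 kb on each side. Fitted changes of uncalled regulators reversed for Srebf1 (0.034 with 50 kb on each side, and -0.33 to 0.096 leaving out 1 list), Scap (-0.53 to 0.054 leaving out 1 list, positive without EpiSC5 OLs) and Insig1 (-0.23 over the gene body, -0.11 with higher-scoring peaks). The cause was not tested. Members with SOX6 in EpiSC5 OLs numbered 13 with 50 kb on each side (29.6% of all genes), against 6 as reported (16.3%). Those in EpiSC5 OPCs numbered 4 with equal peak numbers (10.2% of all genes), against 15 (32.6%). In 129O1 OPCs, SOX6 touched start windows of 4 members with at least 50% covered (12.3% of all genes) and of 1 with higher-scoring peaks (5.83%), against 7. In EpiSC5 OPCs the counts were 1 (5.99%) and 1 (2.52%), against 2. OL-only regions numbered 7 with higher-scoring peaks (10.3%, against 16.8% of all regions), against 18 as reported. Regions in all 4 lists numbered 30 when peaks had to cover 50% of them (26.5%, against 16.2% of all regions), against 50 as reported. Over all regions that share was 30.1% as reported.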
